A study of Mus musculus with 2 samples.

Results

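Solute carriers are membrane proteins that move nutrients, ions, vitamins and metabolites across the plasma membrane and the membranes of organelles, and mouse genes for them carry a symbol that starts with Slc and a family number. Of 371 protein-coding genes with such a symbol, 6 (Slc7a2, Slc11a1, Slc11a2, Slc28a2, Slc39a14 and Slc40a1) were set aside, which left 365 genes of 47 families. Membership rests on the symbol alone. Of the 365 genes, 146 had 20 or more spliced reads over both libraries together and were compared. A further 35 had 1 to 19 reads, and 184 had 0 reads on introns that could be named. By counting error alone a count of 0 allows up to 3 reads. A 0 can also come from the naming of introns, which needs at least 2 introns of a gene. Slc39a1 was left out in this way, though a lone splice junction of it held 64 and 40 reads. The compared genes belong to 40 families and are 146 of 8374 genes with 20 or more reads in the series.

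The samples were adherent macrophages of male C57BL/6JJcl mice, washed from the peritoneum 3 days after an injection of thioglycolate, an irritant that draws leukocytes into the cavity, and left to adhere for 24 h. One group received interleukin 10 (IL-10), a cytokine that restrains inflammatory macrophages, at 100 ng/ml for 4 h, and the other was untreated, with 1 library in each. The value of a gene is the number of reads that cross its annotated introns, and 3843443 (IL-10) and 3871754 (untreated) such reads could be given to 1 gene. The comparison asks how the abundance of each carrier transcript differed between the libraries. With 1 library per group no difference has a replicate check or a test. Each ratio of IL-10 to untreated therefore describes these libraries, and its 95% interval (exact conditional binomial, Clopper-Pearson) covers counting error only. Adherence is the only selection named for these cells, and how many mice were used is not given in the sources used here. In such bulk samples fewer cells of a type and less RNA per cell cannot be told apart.

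Macrophages depend on carriers for glucose and glutamine uptake, for the export of amino acids and nucleosides from lysosomes filled by phagocytosis, and for the zinc and iron traffic that limits microbes. Many carriers work in pairs, such as the Slc3a2 heavy chain with the amino acid exchangers of family 7. Carriers of family 25 lie in the mitochondrial inner membrane, and those of family 35 load nucleotide sugars into the endoplasmic reticulum and Golgi.

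Solute carrier transcripts as a whole took the same share of reads in both libraries. They held 0.8171% of the named reads with IL-10 and 0.8145% without, 1.003 times the untreated share (0.9876 to 1.019). Over the 146 genes the log2 ratio had a median of 0.01, beside -0.0011 over all 8374 genes. A gene was called where the libraries differed 2-fold or more and the interval excluded 1. By that rule 3 carrier genes (2.055%) were higher with IL-10, where 1.74% of all genes were, and 1 (0.6849%) was lower, where 1.48% of all genes were. An interval above 1, whatever the size of the ratio, was found for 18 members (12.33%) against 12.8% of all genes. An interval below 1 was found for 18 members (12.33%) against 13.1%. These shares lie near the background. Among genes with 100 or more but under 500 reads the log2 ratios of 59 members had an SD of 0.33 and those of all 3498 genes an SD of 0.35. The plot of log2 ratio against reads shows the members inside the cloud of all genes.

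**Figure D1:**
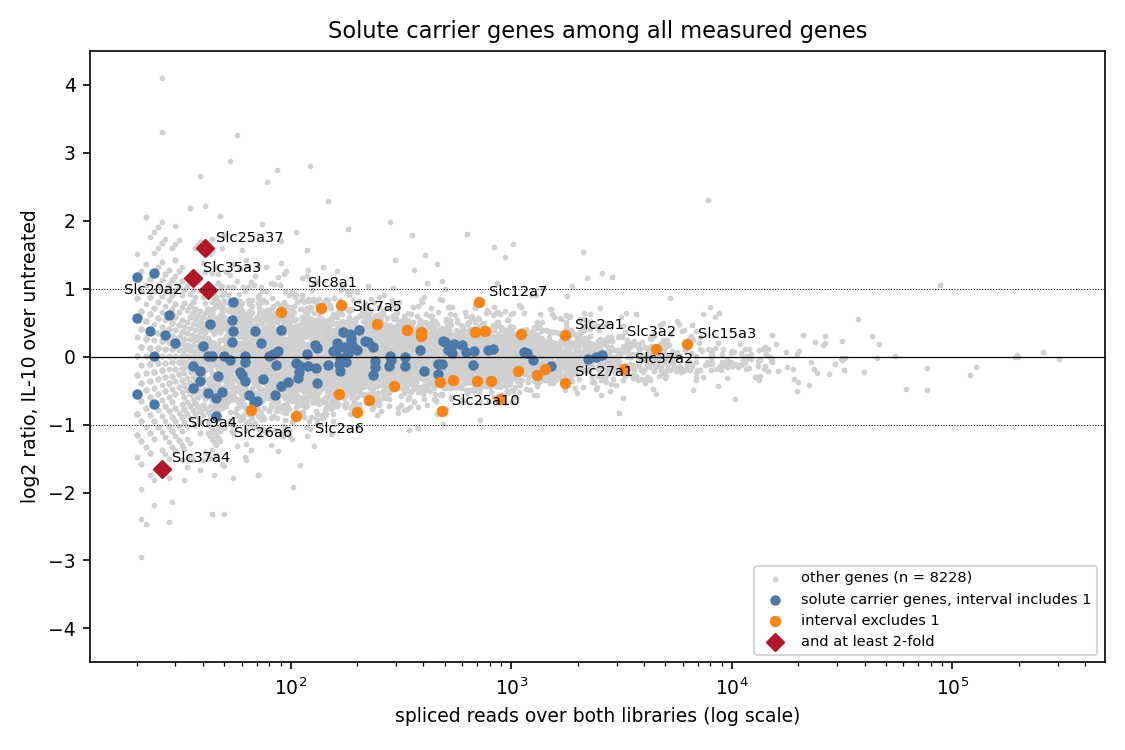
Log2 ratio of IL-10 over untreated (y axis) against spliced reads over both libraries (x axis, log scale) for 146 solute carrier genes (coloured) and the other 8228 measured genes (grey), 1 library per group. The called genes Slc25a37, Slc35a3, Slc20a2 and Slc37a4 (diamonds) all lie at low read numbers, and members with many reads lie close to 0.

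The called genes had few reads. Slc25a37 encodes mitoferrin 1, which carries iron into mitochondria. It had 31 reads after IL-10 and 10 in untreated cells, 3.12-fold higher (1.49 to 7.14), and all 3 of its introns lay on that side. Slc35a3, the Golgi carrier of UDP-N-acetylglucosamine, had 25 and 11 reads, 2.29-fold higher (1.09 to 5.15). Slc20a2, a sodium-phosphate cotransporter, had 28 and 14 reads, 2.01-fold higher (1.03 to 4.14), with 3 of 4 introns of 5 or more reads on the same side. Slc37a4 moves glucose 6-phosphate into the endoplasmic reticulum, where glucose is released from it. It was the called gene in the other direction, with 6 and 20 reads and 0.302 of the untreated level (0.0993 to 0.780). With introns shared with other gene models counted in, the ratio of Slc35a3 was 2.02 and its interval included 1. When only the best covered intron was counted, Slc25a37 alone among these 4 kept an interval that excluded 1 (21 and 7 reads, 3.02-fold, 1.24 to 8.41). Without that intron Slc25a37 had 10 and 3 reads, 3.36-fold (0.865 to 18.99), and Slc35a3 and Slc37a4 also had intervals that included 1.

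Among members with more reads the differences were smaller than 2-fold. With 500 or more reads there were 33 members, of which 7 had an interval above 1, 9 an interval below 1 and 0 were called. These are 21.2% and 27.3% of the members with so many reads, where 23.3% and 22.3% of all 2394 such genes had an interval above or below 1 and 13 were called, all higher. Over all members, 36 intervals excluded 1, and 27 of these still did so when the intron with the most reads was left out. Beside the called Slc25a37, Slc35a3 and Slc37a4, the genes whose interval then included 1 were Slc25a39, Slc25a51, Slc27a4, Slc31a1, Slc8a1 and Slc9a8. In 7 of the 36 genes every intron with 5 or more reads lay on the side of the sum. The exon joins below are those a read had to cross to be counted at the coding intron with the most reads of the called genes and of 6 members with larger counts. The bases run 5′ to 3′ along the mRNA (GENCODE M21 transcripts), and the capitals mark the last 4 bases of one exon and the first 4 of the next.
Slc25a37: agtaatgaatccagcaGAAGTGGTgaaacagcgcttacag
Slc35a3: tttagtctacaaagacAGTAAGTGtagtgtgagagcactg
Slc20a2: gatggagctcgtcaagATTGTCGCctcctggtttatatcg
Slc37a4: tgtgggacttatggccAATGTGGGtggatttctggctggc
Slc12a7: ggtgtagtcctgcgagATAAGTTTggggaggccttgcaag
Slc7a5: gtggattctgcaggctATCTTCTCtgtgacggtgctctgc
Slc15a3: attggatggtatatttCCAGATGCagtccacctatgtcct
Slc25a10: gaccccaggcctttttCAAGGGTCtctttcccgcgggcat
Slc27a1: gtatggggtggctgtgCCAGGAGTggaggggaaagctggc
Slc29a1: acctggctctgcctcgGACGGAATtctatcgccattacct
In the deposited mm9 coordinates, the Slc25a37 join removes intron 3 of 3 (chr14:69863412-69865637, minus strand) and had 21 reads under IL-10 against 7 in untreated cells. The Slc12a7 join removes intron 11 of 23 (chr13:73934273-73934974, plus strand), with 60 and 9. The Slc15a3 join removes intron 3 of 7 (chr19:10927767-10928743, plus strand), with 1189 and 1010, and the Slc29a1 join intron 7 of 12 (chr17:45726024-45726156, minus strand), with 67 and 80. The Slc25a10 join removes its last intron, of 94 bases, with 54 and 85 reads. The joins of Slc35a3 (11 and 5), Slc20a2 (6 and 5) and Slc37a4 (3 and 9) show how few reads lay on any single intron of the called genes.

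Levels differed between members far more than between libraries. To compare genes, the reads on the transcript with the most reads were divided by its number of introns and expressed per 1000000 named reads. On this scale the 146 members spanned 0.0976 to 123.6 with IL-10 and 0.159 to 108.5 without, with medians of 2.66 and 2.50. Slc15a3, a proton-coupled carrier of histidine and peptides in the endolysosome, had the highest level, 123.6 with IL-10 and 108.5 without. Next came Slc3a2 (67.7 and 62.5), the mitochondrial ADP/ATP carrier Slc25a4 (62.1 and 68.1) and the mitochondrial phosphate carrier Slc25a3 (48.1 and 47.3). Slc25a4 and Slc3a2 changed places between the libraries. The 10 members with the most reads held 44% of the members' reads. Called genes ranked from 90 (Slc25a37, 2.69 and 0.861) to 137 (Slc37a4, 0.223 and 0.738) of 146.

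**Figure D2:**
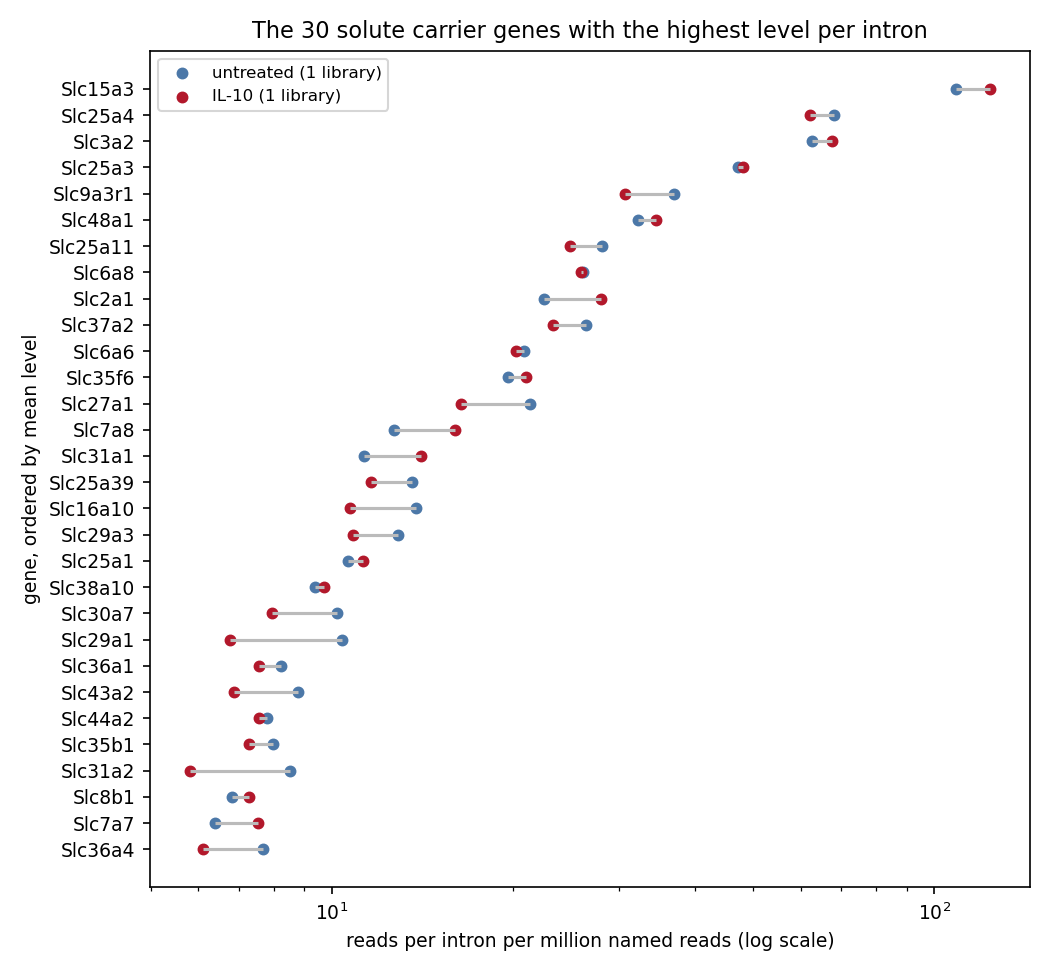
Reads per intron per 1000000 named reads (x axis, log scale) of the 30 solute carrier genes with the highest mean level, in the IL-10 library (red) and the untreated library (blue), 1 library each. Slc15a3 leads at 123.6 and 108.5, and the library points of each gene lie close together compared with the distances between genes.

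Amino acid and peptide carriers were the class with the most reads. Of 71 genes 23 were measured, 16 had a ratio above 1, 6 an interval above 1 and 3 an interval below 1, with 0 called. These are 26.09% and 13.04% of the class, whose median gene had 489 reads. Of all genes with 100 or more but under 500 reads, the range of that median, 10.3% and 10.9% had such intervals. With 500 or more reads the shares were 23.3% and 22.3%, and over all genes 12.8% and 13.1%. Over all 8374 genes 4179 had a ratio above 1. The class median log2 ratio was 0.11, and the summed reads (12276 and 11624) gave a ratio of 1.06 (1.04 to 1.09). Slc15a3 and Slc3a2 held a large part of these reads, so the summed ratio mainly reflects them and does not describe the class evenly. Slc15a3 had 3329 reads after IL-10 and 2944 in untreated cells (1.14, 1.08 to 1.20), with 7 of 8 introns on that side. Slc3a2, the heavy chain that brings family 7 light chains to the surface, had 2342 and 2180 (1.08, 1.02 to 1.15). Its intron with the most reads went the other way, with 660 and 750 (0.886, 0.797 to 0.986). Slc7a5, the light chain for large neutral amino acids, had 106 and 63 reads (1.69, 1.23 to 2.35), and all 8 introns with 5 or more reads were higher. Slc7a8, a light chain with a related substrate range, had 615 and 491 (1.26, 1.12 to 1.42). For the cystine and glutamate exchanger Slc7a11 the reads were 68 and 63 (1.09, 0.760 to 1.56), and for the cationic amino acid carrier Slc7a1 92 and 89 (1.04). Of the 6 measured carriers of family 7, 5 lay above 1.

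All 6 measured carriers of family 38, sodium-coupled carriers of glutamine and other neutral amino acids and their lysosomal relatives, also lay above 1. Slc38a2 had 384 reads under IL-10 against 300 in untreated cells (1.29, 1.11 to 1.505), with 12 of 15 introns on that side, and Slc38a7 had 190 and 146 (1.31, 1.05 to 1.64). The intervals of Slc38a1 (316 and 282 reads), Slc38a6, Slc38a9 and Slc38a10 included 1. In 3 members of the class the interval lay below 1. The large neutral amino acid carrier Slc43a2 had 353 and 457 reads (0.778, 0.675 to 0.896), the aromatic amino acid carrier Slc16a10 had 207 and 269 (0.775, 0.644 to 0.933), and the lysosomal family 36 member Slc36a4 had 239 and 306 (0.787, 0.662 to 0.935). Summed over introns, the taurine carrier Slc6a6 (1095 and 1130 reads, 0.976) and the creatine carrier Slc6a8 (1196 and 1214, 0.992) were within 1.1-fold. Their introns with the most reads were lower. That of Slc6a6 had 196 and 253 reads (0.780, 0.644 to 0.944) and that of Slc6a8 220 and 281 (0.789, 0.658 to 0.944).

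Glucose and sugar phosphate carriers went in both directions. Of 30 genes 11 were measured, with a median log2 ratio of -0.08. An interval above 1 was found for 1 (9.091%) and below 1 for 3 (27.27%), beside 12.8% and 13.1% of all genes. Slc2a1, the main glucose carrier of activated macrophages, had 968 reads after IL-10 and 784 in untreated cells (1.24, 1.13 to 1.37), and 7 of 9 introns were on that side. Slc2a6, an intracellular family 2 carrier, had 72 and 128 (0.567, 0.418 to 0.762), and all 8 introns with 5 or more reads were lower. Without its intron with the most reads Slc2a6 had 46 and 93 reads, a ratio of 0.498 that passed the call rule. Slc37a2, a sugar phosphate exchanger of macrophages, had 1519 and 1742 (0.878, 0.819 to 0.942), with 5 of 17 introns higher. All 4 genes of family 37 were measured. Slc37a1 had 27 and 32 reads and Slc37a3 51 and 39, and both intervals included 1. The Golgi and plasma membrane sugar carrier Slc50a1 (114 and 128 reads) and the lysosomal sialic acid carrier Slc17a5 (103 and 97) differed by less than their counting error.

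Among nucleoside carriers the plasma membrane one was lower with IL-10. Slc29a1, the equilibrative nucleoside carrier of the cell surface, had 347 reads under IL-10 against 541 in untreated cells (0.646, 0.563 to 0.741). Its ratio stayed at 0.661 (0.567 to 0.771) without the intron with the most reads, and 3 of 14 introns were higher. The lysosomal relative Slc29a3 had 212 and 255 (0.837, 0.695 to 1.01), with 0 of 6 introns higher. Slc43a3, a nucleobase carrier, had 29 and 25 reads, and the vesicular nucleotide carrier Slc17a9 had 21 in each library. These 4 of 7 genes were measured, with a median log2 ratio of -0.12.

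Carriers of carboxylates and other organic ions were mostly not measured, and none of the measured ones had an interval that excluded 1. Of 65 genes 11 were measured, with a median log2 ratio of 0.01. The lactate carrier Slc16a3 had 26 reads after IL-10 and 42 in untreated cells (0.624, 0.367 to 1.04), and 0 of 4 introns were higher. Without the intron with the most reads it had 14 and 29, a ratio of 0.486 (0.237 to 0.9504). Slc16a1, the other main lactate carrier, had 41 and 45 (0.918), and Slc16a7 had 83 and 85 (0.984). Slc16a6 had 35 and 20 (1.76, 0.9899 to 3.22), with all 3 introns higher. Bsg, the chaperone that brings Slc16a1 and Slc16a3 to the cell surface, had 1026 and 1531 reads (0.675, 0.623 to 0.731) and 0 of 6 introns higher. It belongs to a list of ion pumps and carrier chaperones in which 5 of 17 measured intervals lay above 1 (29.41%) and 3 below (17.65%). The median gene of the list had 610 reads. Of all genes with 500 or more reads 23.3% had an interval above 1 and 22.3% below. Emb, of the same list, went the other way with 728 and 612 reads (1.198, 1.075 to 1.336) and 7 of 8 introns higher. The ergothioneine and carnitine carrier Slc22a4 had 117 and 100 reads (1.18, 0.895 to 1.56), and Slc10a7 had 57 and 63.

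Mitochondrial carriers were the class with the most measured genes, 30 of 47, and a median log2 ratio of 0.02. Of these, 2 had an interval above 1 and 3 an interval below 1. Slc25a10, the dicarboxylate carrier that exchanges malate and succinate for phosphate, had 175 reads under IL-10 against 308 in untreated cells (0.572, 0.473 to 0.691). Its introns were lower in 8 of 10, and without the intron with the most reads the ratio was 0.547 (0.434 to 0.685). The oxoglutarate carrier Slc25a11 had 668 and 761 (0.884, 0.796 to 0.982), and Slc25a39, a carrier required for mitochondrial glutathione, had 496 and 581 (0.860, 0.761 to 0.971). The citrate carrier Slc25a1 had 346 and 330 (1.06, 0.906 to 1.23). Slc25a51, the mitochondrial NAD carrier, had 55 and 35 (1.58, 1.02 to 2.49). The abundant Slc25a3 (1298 and 1281 reads, 1.02) and Slc25a4 (716 and 791, 0.912) had intervals that included 1. Beside mitoferrin 1, the second mitoferrin Slc25a28 had 39 and 34 reads (1.16, 0.711 to 1.89). Slc25a5, another ADP/ATP carrier, had 1 read in each library on a lone matched junction and was not measured.

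**Figure D3:**
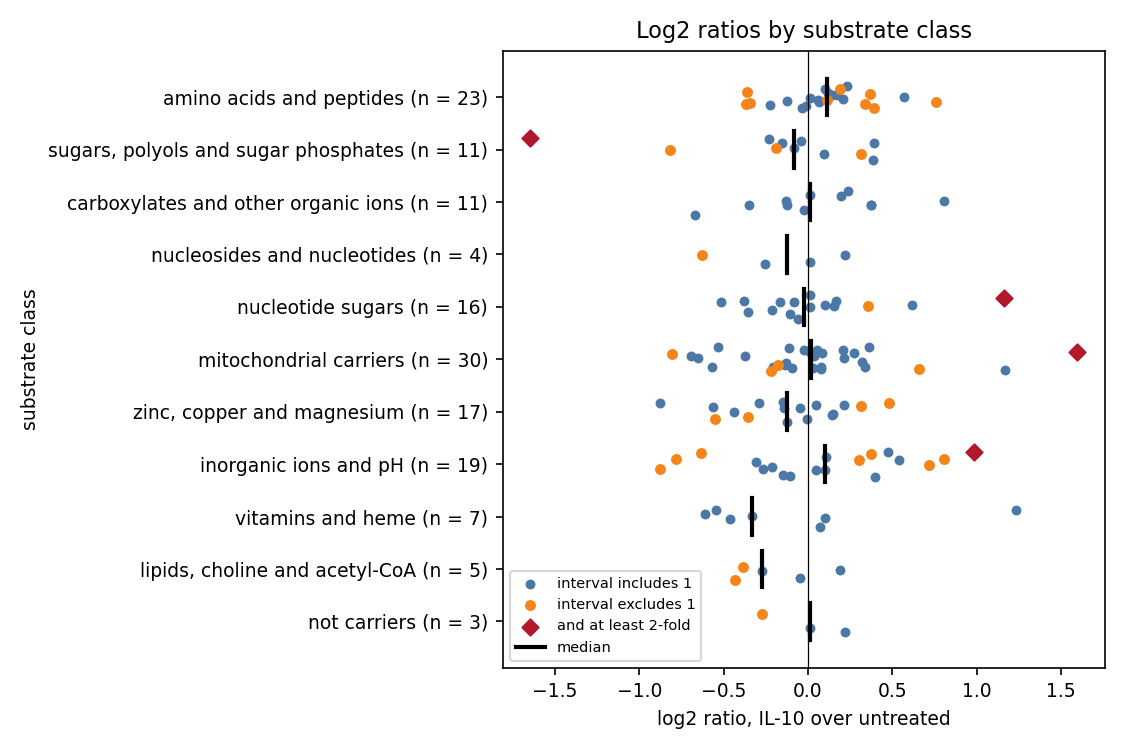
Log2 ratio of IL-10 over untreated (x axis) of the measured solute carrier genes in each substrate class (y axis), 1 library per group, with the class median as a bar. Called genes are diamonds and genes whose interval excluded 1 are orange. Class medians lie between -0.33 (vitamins and heme) and 0.11 (amino acids and peptides), and every class with more than 5 genes spans both sides of 0.

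Among ion carriers of the plasma membrane and organelles, Slc12a7 was higher with IL-10 along most of its introns. Of 59 genes 19 were measured, 5 (26.32%) had an interval above 1 and 3 (15.79%) an interval below 1, beside 12.8% and 13.1% of all genes, with a median log2 ratio of 0.10. Slc12a7, a potassium-chloride cotransporter that sets cell volume, had 453 reads after IL-10 and 261 in untreated cells (1.75, 1.498 to 2.04), and 22 of 23 introns had a ratio above 1. The excess was uneven along the gene. Intron 11 had 60 and 9 reads (6.72, 3.31 to 15.4), intron 8 had 38 and 12 (3.19), and intron 10 had 7 in each. Without intron 11 the ratio of Slc12a7 was 1.57 (1.34 to 1.85). All 5 measured carriers of family 12 had a ratio above 1, where 4179 of all 8374 genes did. Only the interval of Slc12a7 excluded 1. Slc12a4 (597 and 582 reads, 1.03, 0.920 to 1.16) was among the 4 whose interval included it. The sodium-calcium exchanger Slc8a1 had 85 and 52 (1.65, 1.15 to 2.37), and the chloride-bicarbonate exchanger Slc4a2 had 428 and 333 (1.29, 1.12 to 1.499), with 10 of 20 introns higher.

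Sodium-proton exchangers of family 9 lay mostly below 1, in 5 of 6 measured carriers. Slc9a9, an endosomal exchanger, had 88 reads under IL-10 against 138 in untreated cells (0.642, 0.486 to 0.845). The intron of Slc9a9 with the most reads had 21 and 20. Slc9a4 had 24 and 42 (0.576, 0.333 to 0.973), while Slc9a8, an exchanger of the Golgi, had 214 and 175 (1.23, 1.004 to 1.51). The anion exchanger Slc26a6 had 37 and 69 reads (0.540, 0.352 to 0.817). The phosphate carrier Slc20a1, the paralog of the called Slc20a2, had 115 and 88 (1.32, 0.989 to 1.76).

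Zinc, copper and magnesium carriers had 17 of 28 genes measured, with a median log2 ratio of -0.13 and 0 called. The zinc importer Slc39a10 had 143 reads after IL-10 and 103 in untreated cells (1.40, 1.08 to 1.82), with 7 of 8 introns higher. The zinc exporter of the secretory pathway Slc30a7 had 305 and 394 (0.780, 0.669 to 0.908). Other zinc carriers of the secretory pathway differed less, with 164 and 166 reads for Slc30a5 and 132 and 147 for Slc30a6. The copper importer Slc31a1 had 216 and 175 (1.24, 1.01 to 1.53), and its relative Slc31a2, which acts on endosomal copper, had 67 and 99 (0.682, 0.492 to 0.939) with 0 of 3 introns higher. Without its leading intron Slc31a1 had 78 and 74 reads (1.06, 0.763 to 1.48). The endoplasmic reticulum zinc carrier Slc39a7 had 42 and 41 on its own introns and 255 and 253 with shared introns.

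Carriers of nucleotide sugars had 16 of 27 genes measured and a median log2 ratio of -0.03. Apart from Slc35a3, 1 interval lay above 1, that of the orphan member Slc35f5 (219 and 172 reads, 1.28, 1.05 to 1.58). With Slc35a3 that made 12.5% of the class, beside 12.8% of all genes. Slc35f6 had the most reads of the class, 406 and 381 (1.07, 0.931 to 1.24), followed by the endoplasmic reticulum nucleotide carrier Slc35b1 (233 and 253) and Slc35c2 (185 and 216). Carriers of vitamins and heme had 7 of 14 genes measured, and every interval included 1. Slc48a1, which moves heme out of the phagolysosome, had 265 and 249 reads (1.07, 0.898 to 1.28). The ascorbate carrier Slc23a2 had 318 and 305 (1.05). The thiamine carrier Slc19a2 had 17 and 7 (2.45, 0.964 to 6.98). Thiamine gives rise to the cofactor of pyruvate dehydrogenase, and the reads of its carrier were few. The riboflavin carrier Slc52a2 had 18 and 28 (0.648), and the lysosomal member Slc46a3 had 33 and 42. The median log2 ratio of -0.33 of the class is over 7 genes, and the 2 with at least 100 reads gave 0.09.

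Both measured fatty acid carriers were lower with IL-10. Slc27a1, which brings long-chain fatty acids into the cell and activates them, had 754 reads under IL-10 against 991 in untreated cells (0.766, 0.696 to 0.843), and 10 of 11 introns were lower. Slc27a4, of the same family, had 124 and 169 (0.739, 0.581 to 0.937). The choline carriers Slc44a1 (293 and 259, 1.14) and Slc44a2 (612 and 637, 0.968) had intervals that included 1, as did the acetyl-CoA carrier Slc33a1 (27 and 33). These were the 5 of 13 genes measured in the class. Among proteins that share the symbol but do not carry solutes, the scaffold gene Slc9a3r1 had 588 and 716 reads (0.827, 0.741 to 0.924), with 0 of 5 introns higher. Slc4a1ap had 120 and 104, and Slc7a6os had 25 in each library.

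**Figure D4:**
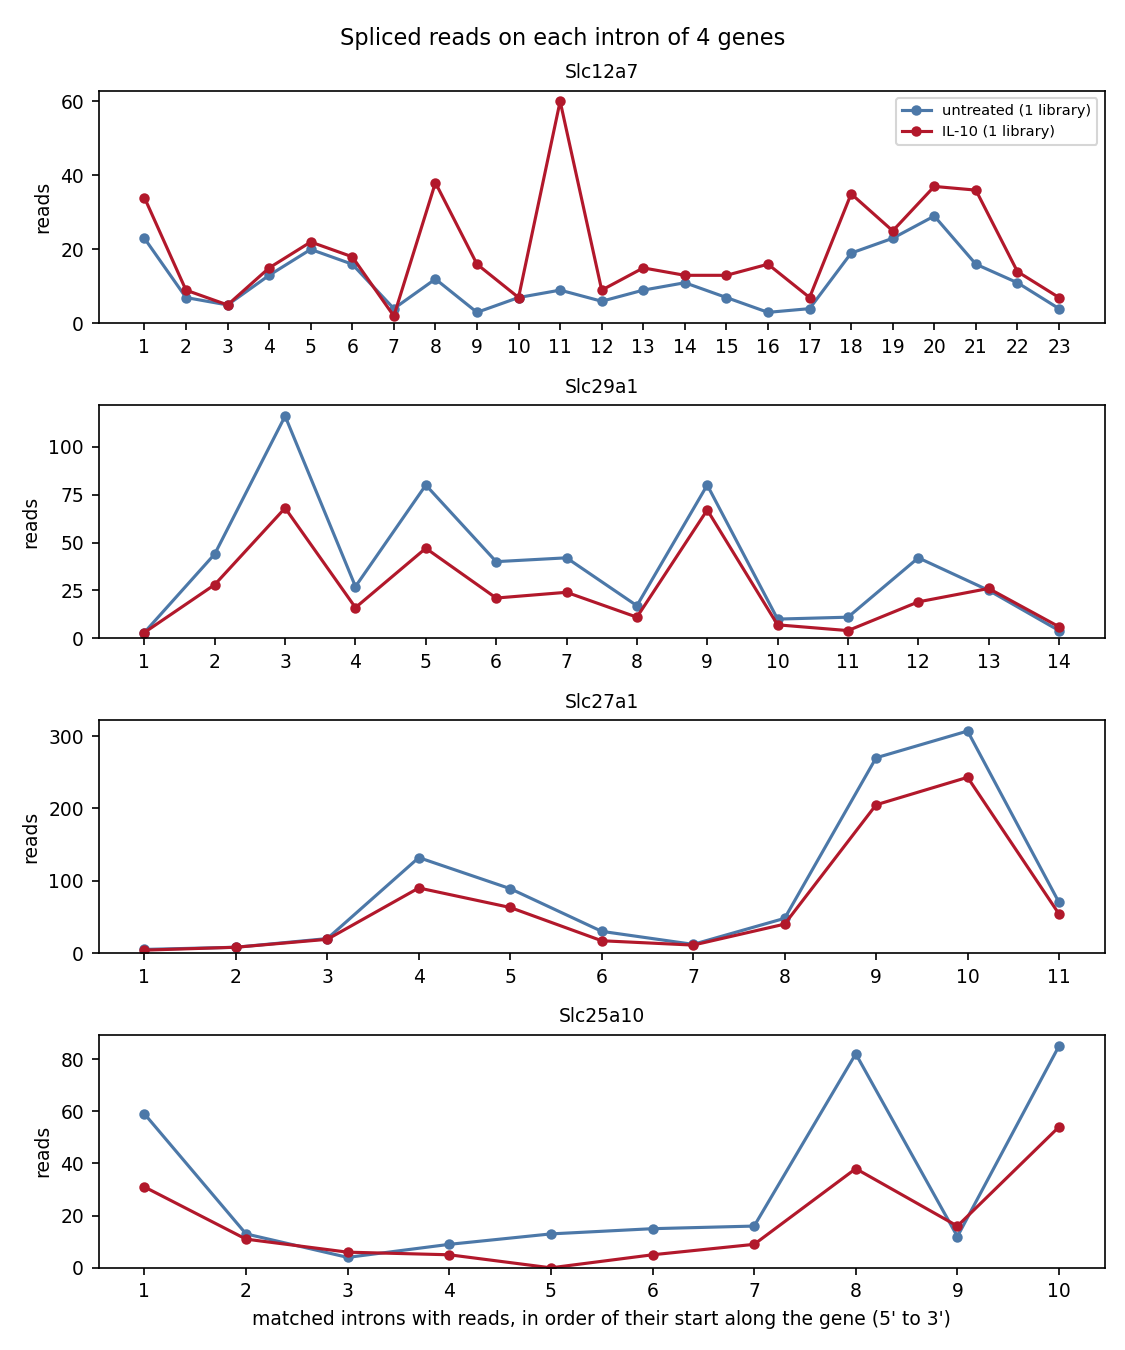
Spliced reads (y axis) on each matched intron in 5′ to 3′ order (x axis) for Slc12a7, Slc29a1, Slc27a1 and Slc25a10 in the IL-10 library (red) and the untreated library (blue), 1 library each. The excess of Slc12a7 peaks at intron 11 with 60 against 9 reads, while the lower counts of Slc29a1 with IL-10 (347 against 541 in sum) run along most of the gene.

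Splice choice within members showed no difference that met the rule. At splice sites with 20 or more reads in each library and more than 1 junction, a junction was called where its shares lay 20 percentage points or more apart and their intervals were separate. Of 123 such sites in 47 members 0 were called, beside 0.211% of 8548 sites in all genes. The widest difference lay in Slc4a1ap. There the junction at chr5:31846287-31848552 (mm9) took 11 of 22 donor reads with IL-10 (28.2% to 71.8%) and 3 of 22 without (2.91% to 34.9%), and these intervals overlapped. In the magnesium and zinc class, an acceptor of Slc39a11 drew 80.0% of 40 reads from its main donor with IL-10 and 95.3% of 43 without.

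Promoters of members were searched for the Stat motif TTCNNNGAA, since the IL-10 receptor signals through Stat3. Of the 146 members 114 had a RefSeq promoter (GRCm38.p6, 250 bases before to 50 after the gene start), and 8 of these (7.02%) held the motif on either strand, which is its own reverse complement. Among 6726 measured genes with a promoter the share was 8.01%, and over all 27025 genes it was 9.55%. Of 13 members with an interval above 1 it was found in Slc39a10, and of 17 with an interval below 1 in 0. The match in Slc39a10 starts 82 bases before the gene start, in the promoter at chr1:46925727-46926026 (minus strand), and is shown in capitals because Slc39a10 was the zinc importer that was higher with IL-10.
Slc39a10: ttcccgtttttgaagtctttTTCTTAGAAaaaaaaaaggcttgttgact
A match is a string in this window and does not show that a factor binds there. The motifs TGATGNAA and TCACGTGA were searched in the same way. Each was found in 3.51% of the 114 members, beside 2.68% and 2.5% of the 6726 measured genes.

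Transporters with other symbols and the proton pump that drives lysosomal carriers were counted in the same way. Of 38 carriers with other symbols 28 were measured and 2 (7.143%) were called higher, beside 1.74% of all genes. Both had few reads, and of all genes with 20 to 99 reads 4.39% were called higher. Sfxn5, a mitochondrial sideroflexin, had 34 reads after IL-10 and 7 in untreated cells (4.89, 2.13 to 13.1), and its relative Sfxn2 had 20 and 8 (2.52, 1.06 to 6.61). The uncoupling protein gene Ucp2 had 4499 and 4858 (0.933, 0.896 to 0.972), the lysosomal cholesterol exporter Npc1 2728 and 2607, and the lysosomal cystine exporter Ctns 223 and 301 (0.746, 0.625 to 0.890). Of 24 measured ABC transporters 0 were called. The cholesterol exporter Abca1 had 1416 and 1030 (1.39, 1.28 to 1.502) and Abcg1 1415 and 1461 (0.976). Subunits of the V-ATPase, which form that pump, had 8 of 15 intervals below 1 and 2 above, with a median log2 ratio of -0.08 and 0 called. Their median gene had 4640 reads, and of all genes with 500 or more reads 22.3% had an interval below 1 and 23.3% above. Atp6v1b2 had 6695 and 7395 (0.912) and Atp6v0a1 4611 and 4031 (1.15).

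The cells carried the markers of their label. Of 8 macrophage markers 7 were measured, and together they took 1.555% of reads with IL-10 and 1.98% without. Lyz2 held most of these reads (31849 and 45047, 0.712). Of the 7 intervals 4 (57.14%) lay below 1 and 2 (28.57%) above, where 22.3% and 23.3% of all genes with 500 or more reads did. Csf1r (6737 and 7892, 0.860, 0.832 to 0.8885) and Cd68 (14907 and 17303, 0.868, 0.849 to 0.887) were lower too, as was Mertk (715 and 835, 0.863, 0.780 to 0.954). Itgam (521 and 397, 1.32, 1.16 to 1.51) and Fcgr1 (405 and 336, 1.21, 1.05 to 1.41) lay above 1. Cd14 was at 0 on named introns in both. Of 8 neutrophil markers 1 was measured (Mmp8, 231 and 221 reads), and S100a8, S100a9 and Ly6g were at 0 on named introns. For any marker a 0 can also come from the naming rule, which needs at least 2 introns of a gene. The V-ATPase subunits Atp6v0c and Atp6v1f were at 0 as well. No B, T or NK cell marker reached 20 reads. Fibroblast and mesothelial markers had 5 of 7 measured, with 0.03252% of reads with IL-10 and 0.02965% without. Of 5 eosinophil and mast cell markers 2 were measured, with 0.002498% and 0.001524%. Siglecf had 86 and 48 reads, Tpsb2 10 and 11 and Cpa3 7 and 9, and Epx and Prg2 were at 0. The part of these cells in the values of carrier genes was not tested.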

How the data were processed

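RNA-seq of 1 IL-10 library and 1 untreated library was analysed. Per the submitters' processing notes, TopHat and Cufflinks were used with the mm9 genome, with no versions. The deposited values are counts of reads across each splice junction, per the file headers, and were not scaled by the authors. Insert sizes were 188 and 197 bp, per the labels. Both samples carry the same treatment text, so groups came from the titles.

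Junctions were named from GENCODE M21, a later build, by chromosome, strand and exact intron length, where at least 2 introns of a gene shared an offset of at most 20 Mb. Where several offsets were possible, the one shared by most junctions within 500 kb was taken. Of 131057 junctions 106702 were named, with 98.194% of reads. The libraries held 3998954 (IL-10) and 4035991 (untreated) junction reads.

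Reads on introns of 1 gene alone were summed and divided by the library total of such reads. Log2 ratios used a pseudocount of 0.5 reads. Members with at least 20 reads were compared. Substrate classes follow family numbers, with single genes moved by substrate. Named members were those called, and in each class the 4 with the most reads and the 4 with the widest gap between 1 and their interval, with 2 and 2 by the same measures in each list of other transporters. Other genes given were chosen after their values were seen, and some genes that the rule names are not reported here. Members and lists were chosen with earlier results of these data known. The ratios and shares were tested on data simulated with counting error alone, as the intervals assume. That test cannot show how they behave when libraries or introns vary by more. Intervals cover counting error only, because each group holds 1 library. They take each read as independent, and reads carry no molecular identifiers, so copies of 1 molecule could not be told apart.

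Alternatives were the scaling factors of edgeR 4.0.16 and DESeq2 1.42.0 (R 4.3.3), the total of all junction reads, other read minimums, folds, intervals and pseudocounts, and other choices of introns. Python 3.11.15, numpy 2.4.6, scipy 1.17.1, pandas 2.3.3 and matplotlib 3.10.9 were used.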

Additional observations from a re-analysis of the deposited data

Results flagged for a closer look

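A splice junction inside Slc7a7, the light chain that exports cationic amino acids, matched no annotated intron and was therefore outside the gene's value. It spans chr14:54997595-54998783 (mm9) and had 24 reads with IL-10 and 11 without, a ratio of 2.198 (1.04 to 4.97), above the level of the untreated library. Slc7a7 itself had 263 and 226 reads (1.17, 0.978 to 1.41). Over the measured members 207 such junctions held 304 reads with IL-10 and 310 without, and 5 of them had 20 or more reads. Of these 5, only the one above had an interval above 1. The other in Slc7a7 (chr14:54998910-55027339) had 10 and 13 reads (0.775, 0.304 to 1.91).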

How the results depend on the processing

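The counts of called members depended on the rule, as few reads lay behind them. With no minimum of reads 5 members were higher, and with at least 100 reads 0 were higher and 0 lower. At 1.5-fold 7 were higher and 7 lower. A total of 1 was higher at 3-fold, and 1 with a 99% interval. When only the best covered intron was counted, 115 members had enough reads. Of these 4 were higher, only 1 of them also called under the main rule, and 0 were lower. With that intron left out, a setting added after the data were seen, 1 was higher (Slc20a2) and 2 were lower (Slc2a6 and Slc16a3). Under the scaling of edgeR, of DESeq2 or of all junction reads none of the 61 named ratios changed side or lost an interval that excluded 1. When only the best covered intron was counted, 16 of the 30 named intervals that excluded 1 came to include it, that of Slc9a9 among them, and the ratios of Slc3a2 (0.886) and Slc9a9 (1.06) reversed. The cause was not tested. At 10 percentage points 1 of 123 splice sites of members was called (0.813%), beside 29 of 8548 over all genes (0.339%). The median log2 ratio of members lay between -0.01 and 0.03 under all alternatives run. No paired analysis was possible because each group holds 1 library. With 1 library per group, depth limits calls to members with enough reads.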

Other observations

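The zinc importer gene Slc39a1 has a lone matched junction, which the naming rule leaves out. That junction, of 686 bases at the offset of its neighbours (chr3:90052182-90052867, mm9), had 64 reads with IL-10 and 40 without, a ratio of 1.61 (1.07 to 2.46). It was looked up after the data were seen. The zinc exporter Slc30a1, also with a lone junction, had 5 and 0 reads. Just inside the minimum of 20 reads, the carrier Slc25a43 had 14 and 6 reads and the vitamin carrier Slc5a6 8 and 12. Just outside it, Slc30a4 had 15 and 4, Slc25a40 9 and 10 and Slc39a4 7 and 12.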
